A study of Naumovozyma castellii with 24 samples.

Results

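The genes described here encode the proteins of the cytosolic ribosome in the budding yeast Naumovozyma castellii. They were found by symbol: every gene whose name begins with RPL, RPS or RPP followed by a digit in the RefSeq annotation of this species was taken, which gave 108 of the 5648 genes in the counts. One of them, RPP1, names a subunit of the RNA-processing enzyme RNase P in Saccharomyces cerevisiae and not a ribosomal protein, so 107 genes were described as ribosomal: 57 of the large subunit, 45 of the small subunit and 5 of the stalk. The 107 genes fell into 71 families, and 36 of these families had an A and a B copy (18 large, 16 small and 2 stalk). In the counts, 66 of the 107 genes were split over more than 1 exon, against 129 of the 5541 other genes. The median gene span was 724 bp for the ribosomal protein genes and 1257 bp for the other genes.

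The ribosome has a large subunit, where peptide bonds are made, and a small subunit, where the messenger is decoded. The acidic stalk, built from RPP0 with copies of RPP1A, RPP1B, RPP2A and RPP2B, reaches out from the large subunit and recruits elongation factors. In S. cerevisiae the genes for these proteins are among the most highly transcribed in growing cells, are switched as one group with nutrients and stress under RAP1, FHL1 and IFH1, and often occur as duplicate pairs left from a whole-genome duplication that N. castellii shares.

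RNA was sequenced from the strain DBP004 and its deletion derivatives in rich medium (YPD). In the deletion experiment, cultures of wild type (WT) and of strains lacking ROX1, ROX2 or both (rox1, rox2, rox1/rox2) were grown at 21% oxygen and then kept for 2 h with 0.6 mM cobalt chloride (CoCl2), a salt used to imitate low oxygen, or without it. Each of the 4 CoCl2 groups had 2 libraries (named WT CoCl2, rox1 CoCl2 and so on), as had untreated rox1 and rox1/rox2, while untreated rox2 and WT had 3. They were sequenced as single-end reads of 42 bp. In the oxygen experiment, WT hypoxia (6 h at 1% oxygen) and WT normoxia (6 h at 21% oxygen) had 3 libraries each, made by another provider with paired reads of 90 bp. The labels call the libraries of a group biological replicates.

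Gene counts per library came to 5.59 M to 12.7 M in the deletion experiment and 12.0 M to 12.2 M in the oxygen experiment. ROX1 had 0 or 1 count in the 8 libraries of strains labelled as lacking it and 107 to 392 counts in the 10 other libraries of that experiment. No gene carried the symbol ROX2, so that deletion was not checked here. Reads outside genes made up 4.52% to 19.9% of the counted reads in the deletion experiment, with rox2 CoCl2 library 1 at 19.9% and rox2 library 3 at 14.5%. Levels below are CPM, the counts of a library brought to a common library size after TMM scaling. Fold changes are log2 values from edgeR's quasi-likelihood fit over all genes of an experiment, and a gene is called when its Benjamini-Hochberg adjusted p over all genes is below 0.05. All 107 ribosomal protein genes passed the filter on low counts in both experiments.

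With CoCl2, the share of gene counts that came from ribosomal protein genes was lower in every genotype. It was 5.38% and 8.82% in the WT CoCl2 libraries, against 14.7%, 15.6% and 14.9% in WT. It was 8.69% and 12.0% in rox1 CoCl2, against 16.9% and 13.6% in rox1. It was 8.44% and 14.5% in rox2 CoCl2, against 17.2%, 16.3% and 22.8% in rox2. In rox1/rox2 CoCl2 it was 5.80% and 8.59%, against 14.4% and 13.2% in rox1/rox2. The groups with and without CoCl2 did not overlap in any of the 4 genotypes, and in each CoCl2 group the library labelled 1 lay below the library labelled 2. In hypoxia the share was 10.4%, 10.6% and 11.2%, against 10.9%, 10.8% and 11.3% in normoxia, and these groups overlapped.

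Each class followed the sum. Large-subunit genes took 2.82% and 4.69% of the gene counts in WT CoCl2, against 7.54%, 8.02% and 7.64% in WT. Small-subunit genes took 2.32% and 3.72% in WT CoCl2, against 6.47%, 6.88% and 6.53% in WT. The 5 stalk genes took 0.239% and 0.410% in WT CoCl2, against 0.705%, 0.751% and 0.741% in WT, with no overlap in any class.

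**Figure D1:**
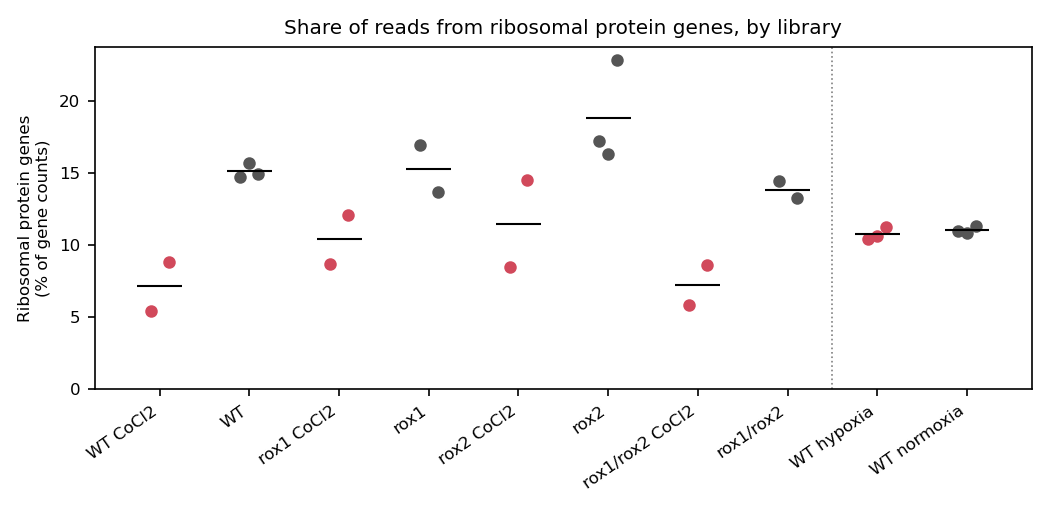
Share of each library's gene counts (%) that fell on the 107 ribosomal protein genes. Each point is 1 library, red for CoCl2 or hypoxia and grey for the untreated or normoxic group, and the bar is the group mean; a dotted line parts the oxygen experiment. The WT CoCl2 points lie at 5.38% and 8.82%, below the WT points at 14.7% to 15.6%, while hypoxia and normoxia overlap near 11%.

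Fewer ribosomal protein messages and more messages of other genes cannot be told apart in such shares, since the counts are relative within a library. The gene-by-gene fit gave the same direction: in WT CoCl2 against WT, 88 of the 107 ribosomal protein genes fell and 0 rose. Of all 5544 genes tested, 19.4% were called lower in that comparison. The median log2 fold change of the ribosomal protein genes was −1.23, that is 0.427 of the WT level, with a range of −2.31 to −0.46, while the median of the other genes was 0.03. Every WT CoCl2 library lay below every WT library for 107 of the 107 genes, which held for 37.8% of all genes tested. DESeq2 called 98 lower and 0 higher, with 23.1% of all genes lower. The 3 classes gave similar counts: 49 of 57 large-subunit genes fell (median −1.18), as did 34 of 45 small-subunit genes (median −1.28) and 5 of 5 stalk genes (median −1.47). Of the genes with introns 50 of 66 fell (median −1.20), and of the single-exon genes 38 of 41 fell (median −1.28). The count rested on which CoCl2 library was used: it was 12 without WT CoCl2 library 1 (median −0.83, 8.29% of all genes lower) and 99 without WT CoCl2 library 2 (median −1.80, 21.9% of all genes lower), and it was 72 to 85 when 1 WT library was left out.

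**Figure D2:**
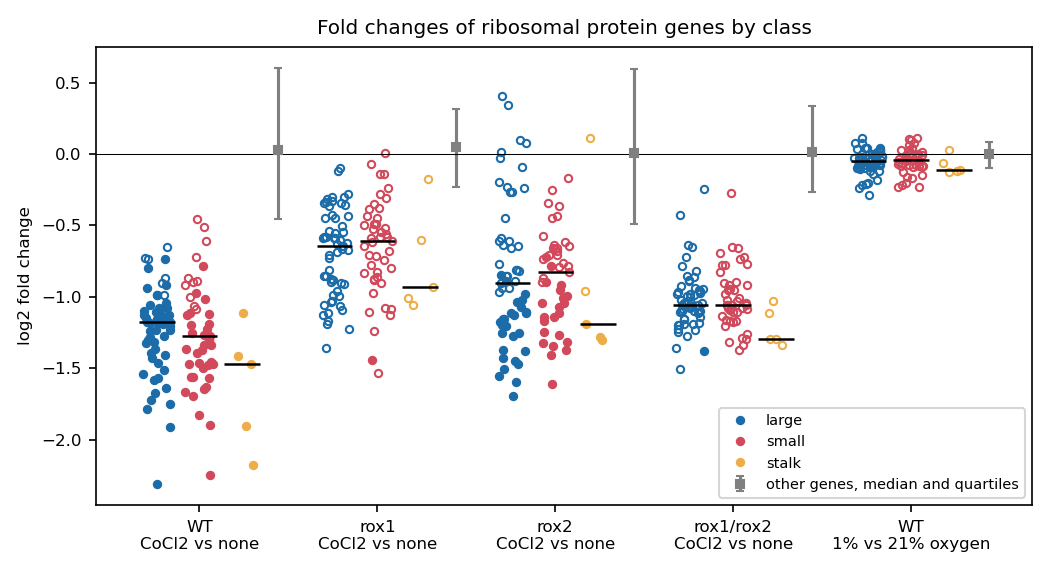
Log2 fold changes of the 107 ribosomal protein genes in 4 CoCl2 comparisons and in hypoxia, by class. Each circle is 1 gene, filled where its adjusted p is below 0.05, black bars are class medians, and grey squares with bars give the median and quartiles of all other genes. In WT with CoCl2 all circles lie below 0 and 88 are filled, and in hypoxia all lie between −0.29 and 0.11 and none is filled.

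All stalk genes fell in WT CoCl2. RPP2A, an acidic stalk protein, had 189 and 411 CPM in WT CoCl2, against 1245, 1396 and 1423 CPM in WT. Its log2 fold change was −2.18 (SE 0.396, adjusted p = 0.000608). RPP1B had 184 and 377 CPM in WT CoCl2, against 995, 1066 and 1089 CPM in WT (−1.90, SE 0.389, adjusted p = 0.00140). Both were among the 6 ribosomal protein genes with the lowest fold change, and their CoCl2 libraries did not overlap the untreated ones. RPP0, the base of the stalk, had 1432 and 2867 CPM in WT CoCl2, against 4476, 4834 and 4614 CPM in WT, and changed least of the stalk genes (−1.11, SE 0.337, adjusted p = 0.0151). RPP1A fell by 1.47 and RPP2B by 1.41 on the log2 scale.

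The gene with the lowest fold change was RPL43B, for a large-subunit protein that has no A copy among the symbols used here. RPL43B had 38.4 and 78.7 CPM in WT CoCl2, against 278, 298 and 294 CPM in WT (−2.31, SE 0.363, adjusted p = 0.000212). RPS28A, for a small-subunit protein at the messenger exit side, had 61.0 and 79.5 CPM in WT CoCl2, against 318, 338 and 345 CPM in WT (−2.25, SE 0.302, adjusted p = 6.67e-05). The levels in WT CoCl2 were therefore 0.201 of the WT level for RPL43B and 0.210 for RPS28A, with no overlap between the groups. RPL22A of the large subunit (−1.91, SE 0.531) and RPS21B of the small subunit (−1.90, SE 0.440) completed the 6 lowest and were called.

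At the other end, the 6 genes with the fold change closest to 0 were not called. RPS9A, for a small-subunit protein that helps assemble the subunit's body, had 129.8 and 209 CPM in WT CoCl2, against 237, 237 and 223 CPM in WT (−0.46, SE 0.288, adjusted p = 0.205). RPS7B had 188 and 333 CPM in WT CoCl2, against 353, 394 and 368 CPM in WT (−0.51, SE 0.373). The libraries of the groups did not overlap for either gene, but neither adjusted p passed the threshold. The other 4 were RPS23B (−0.61) and RPS23A (−0.72), both copies of a decoding-centre protein, RPL8A (−0.65) and RPL18B (−0.73). RPP1, the RNase P gene that the naming rule also caught, had a log2 fold change of −0.78 that missed the threshold (adjusted p = 0.0519).

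The CoCl2 comparison in the other genotypes had the same sign for most genes but fewer calls. A negative fold change was found for 100 of the 107 genes in all 4 genotypes. In every genotype the stalk had the lowest class median: −0.93 in rox1 CoCl2, −1.19 in rox2 CoCl2 and −1.29 in rox1/rox2 CoCl2, against −0.64, −0.90 and −1.05 for the large subunit in the same order. The small-subunit medians were −0.61 in rox1 CoCl2, −0.82 in rox2 CoCl2 and −1.055 in rox1/rox2 CoCl2. In rox1 CoCl2 against rox1, 1 gene fell (RPS28A) and 0 rose, with 3.21% of all genes called lower. Before adjustment 32 of the 107 had p below 0.05, against 23.6% of all genes, and DESeq2 called 16 lower, against 6.71% of all genes. The median was −0.63, and 91 of 107 genes had every rox1 CoCl2 library below every rox1 library, against 25.3% of all genes. RPS28A had 129 and 152 CPM in rox1 CoCl2, against 519 and 244 CPM in rox1 (−1.44, SE 0.308, adjusted p = 0.00987). RPS10A, a small-subunit protein near the messenger entry, had 424 and 750.2 CPM in rox1 CoCl2, against 2564 and 834 CPM in rox1 (−1.53, SE 0.579, adjusted p = 0.124). For both genes the rox1 libraries differed from each other by more than 2-fold. RPL22A had −1.36 (adjusted p = 0.151), and the genes closest to 0 were RPL36B (−0.10), RPS23B (−0.07) and RPS16A (0.01). The number called rested on single libraries, since leaving out 1 library of a group left 1, and the RPS28A call was then lost in some fits.

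In rox2 CoCl2 against rox2, 52 of the 107 genes fell and 0 rose, with 21.8% of all genes called lower. The median was −0.89, and 69 of 107 genes had every rox2 CoCl2 library below every rox2 library, against 30.5% of all genes. RPL19A, whose protein forms a bridge between the subunits, had 678 and 891 CPM in rox2 CoCl2, against 2559, 2430.4 and 2630.3 CPM in rox2 (−1.69, SE 0.343, adjusted p = 0.00150). RPS3, which lies at the messenger entry, had 1386 and 1963 CPM in rox2 CoCl2, against 5514, 5121 and 4732 CPM in rox2 (−1.61, SE 0.299, adjusted p = 0.000849). Neither gene's groups overlapped, and RPL16A was as low (−1.60, SE 0.348). At the other end RPL39, a very small protein at the mouth of the exit tunnel, had 172 and 573 CPM in rox2 CoCl2, against 214, 159.5 and 474 CPM in rox2, which overlapped (0.40, adjusted p = 0.539). RPL34B (0.34) and RPP2B (0.11) were also above 0 and not called. The count was smaller without rox2 CoCl2 library 1 than without rox2 CoCl2 library 2, and each of these fits left 1 library in that group. With rox2 CoCl2 library 1 and rox2 library 3 both left out, genes were called in both directions. That fit too left 1 rox2 CoCl2 library, so its counts are not given.

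In rox1/rox2 CoCl2 against rox1/rox2, 1 gene fell (RPL17A, which lines the exit tunnel) and 0 rose, with 1.41% of all genes called lower. The median fold change was −1.06, and 104 of 107 genes had every rox1/rox2 CoCl2 library below every rox1/rox2 library, against 29.4% of all genes. RPL17A had 353 and 501 CPM in rox1/rox2 CoCl2, against 1117 and 1105 CPM in rox1/rox2 (−1.38, SE 0.355, adjusted p = 0.0352). RPL8B had a lower fold change (−1.50, SE 0.491) and missed the threshold (adjusted p = 0.0831), as did RPS21B (−1.37). The genes closest to 0 were RPL8A (−0.24), RPS9A (−0.27) and RPL18B (−0.43), all 3 also among the 6 closest to 0 in WT. Before adjustment 89 of the 107 genes had p below 0.05, against 24.2% of all genes, and DESeq2 called 57 lower, against 5.21% of all genes. The number called rested on single libraries, since leaving out 1 library of a group left 1, and the RPL17A call was then lost in most fits.

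Whether the CoCl2 response itself differed between genotypes was tested by interaction terms. One ribosomal protein gene passed: the CoCl2 response of RPL43B in rox1 was less negative than in WT by 1.96 (log2, SE 0.501, adjusted p = 0.0427), with 0.812% of all genes called in that direction. RPL43B had 118 and 178 CPM in rox1 CoCl2, against 187 and 191 CPM in rox1, beside the 38.4 and 78.7 CPM of WT CoCl2 and the 278 to 298 CPM of WT. The gene was thus lower in rox1 than in WT without CoCl2, by values that did not overlap, and higher with it. The call was lost when 1 of 7 libraries was left out in turn, including each WT library. For rox2, 0 genes passed (0.0902% of all genes called in either direction), 3 had an unadjusted p below 0.05 (13.9% of all genes), DESeq2 called 1, and the values ran from −0.47 for RPL16A to 1.72 for RPL43B (SE 0.472, adjusted p = 0.150). The rox2 interaction moved with gene span over all genes (Spearman's rho −0.639). After a correction for gene span, introns included, RPL43B stood at 0.92, below RPL34B (1.09) and RPL22A (1.03). For rox1/rox2, 0 passed in edgeR's test and 0 in DESeq2's (0.397% of all genes called), 2 had an unadjusted p below 0.05 (14.8% of all genes), and the values ran from −0.31 for RPS7A to 1.34 for RPL43B. Each interaction subtracts the same WT response, in which RPL43B had the lowest fold change (−2.31), so its place at the top is shared between them.

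Without CoCl2, no ribosomal protein gene was called between a deletion strain and WT by edgeR or by DESeq2. For rox1 against WT 0 of 107 had an unadjusted p below 0.05, against 8.37% of all genes (0.0541% of all genes called), and the median was 0.01, with RPL36B lowest (−0.89) and RPS10A highest (1.00). For rox2 against WT 2 had an unadjusted p below 0.05, against 7.32% of all genes (0.0722% of all genes called). All 107 fold changes were positive there, with a median of 0.36 and a range of 0.03 for RPL27B to 0.83 for RPS17A. For rox1/rox2 against WT 1 had an unadjusted p below 0.05, against 16.9% of all genes (0.108% of all genes called), the median was −0.39, and RPL43B was lowest (−0.82) and RPS23B highest (0.24). When only the rox1/rox2 and WT libraries were fitted, 86 were called lower and 1 higher, with 26.5% of all genes called lower and 24.4% higher in that fit.

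With CoCl2 in both strains, 3 genes were higher in rox1 CoCl2 than in WT CoCl2, where 4.65% of all genes were called higher. RPS3 had 2346 and 3536 CPM in rox1 CoCl2, against 1177 and 1831 CPM in WT CoCl2 (0.97, SE 0.312, adjusted p = 0.0468). The other 2 were RPL43B (1.34, adjusted p = 0.0247) and RPS28A (1.00, adjusted p = 0.0387), and none of the 3 overlapped between the groups. The median of all 107 was 0.57 and every fold change was above 0. The number called rested on single libraries: it rose without WT CoCl2 library 2, and all calls were lost without WT CoCl2 library 1 or without rox1 CoCl2 library 2. In rox1/rox2 CoCl2 against WT CoCl2, 0 were called in either direction by edgeR and by DESeq2 (5.01% of all genes called), with 1 unadjusted p below 0.05 (18.5% of all genes) and values between −0.52 for RPP1A and 0.72 for RPS28A.

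In rox2 CoCl2 against WT CoCl2, 5 genes were called higher, where 2.69% of all genes were called higher, and the 3 with the largest fold change among them were RPP2B (2.12, SE 0.499, adjusted p = 0.0360), RPL43B (1.99, SE 0.377, adjusted p = 0.0156) and RPL42B (1.71, SE 0.432, adjusted p = 0.0446). The number called rested on single libraries: it changed when any 1 was left out, which left 1 library in its group. RPL38 (2.16) and RPL39 (2.05) had fold changes as large and were not called. RPP2B had 456 and 1245 CPM in rox2 CoCl2, against 129 and 263 CPM in WT CoCl2, with no overlap. This comparison moved with gene span over the whole genome: Spearman's rho of the log2 fold change with span was −0.741 over 5488 genes, against 0.140 for WT CoCl2 against WT. Among the other genes, the 539 shortest (median span 387 bp) had a median log2 fold change of 0.71, and the 538 longest (median 3458 bp) had −0.45. After a correction for gene span, introns included, 0 ribosomal protein genes were called, the median fell to 0.41, against 0.71 uncorrected, and RPP2B stood at 1.31. With the same correction 82 genes were called lower in WT CoCl2 against WT (median −1.13, 20.7% of all genes lower) and 70 in rox2 CoCl2 against rox2 (median −1.10, 21.6% of all genes lower).

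**Figure D3:**
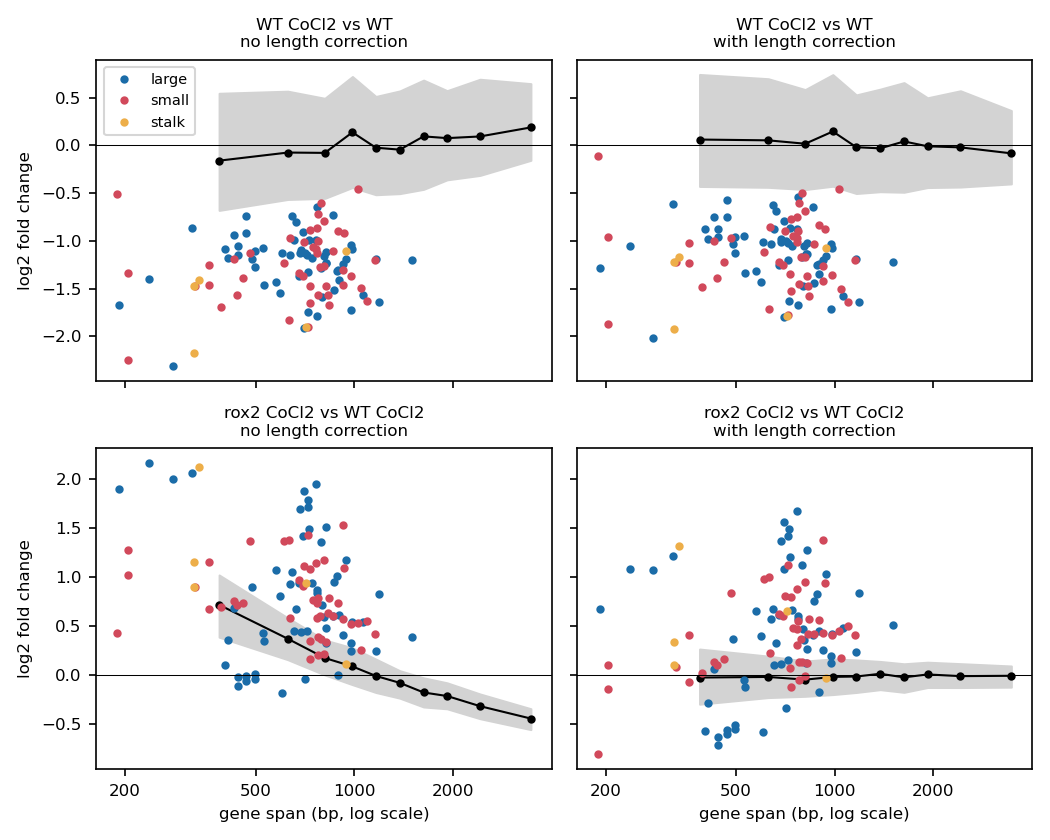
Log2 fold change against gene span (bp, log axis) for WT CoCl2 against WT (top) and rox2 CoCl2 against WT CoCl2 (bottom), without (left) and with (right) the length correction. Coloured points are ribosomal protein genes by class, and the black line and grey band are the median and quartiles of other genes in 10 bins of span. The ribosomal protein genes lie below the line of other genes in the top left panel, and the bottom left line slopes down with span, with 0.71 for the shortest genes and −0.45 for the longest.

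The balance of reads between exons also differed in the rox2 CoCl2 libraries, over 16 ribosomal protein genes. These had at least 1000 reads, over the 18 libraries together, in the exon row that held fewer reads. That sum took in the rox2 CoCl2 reads, so genes with a high share there passed more easily. The median share of a gene's reads in that row was 22.2% and 22.6% in rox2 CoCl2, against 6.87%, 4.63% and 8.70% in rox2. It was 1.74% and 3.06% in WT CoCl2 and 4.68% to 5.49% in WT, and no library outside rox2 CoCl2 exceeded 8.70%. In RPS0A, whose protein helps mature the small subunit, the row held 31.5% and 40.3% of the reads in rox2 CoCl2, against 7.14%, 6.60% and 16.8% in rox2. RPL17A had 50.7% and 41.0% in rox2 CoCl2, against 46.4%, 47.3% and 41.6% in rox2, so its balance overlapped. What part these library differences have in the rox2 CoCl2 results was not tested. Counting each gene by its exon row with the most reads gave a median of −0.93 in rox2 CoCl2 against rox2, close to the −0.89 with rows summed. Of the 90 genes called lower in WT CoCl2 or in rox2 CoCl2 relative to the untreated strain, 50 were called in both, which is 50 of the 88 in WT and 50 of the 52 in rox2. Across the 107 genes the fold changes in rox1 and WT correlated at r = 0.459 (rho 0.447), those in rox2 and WT at r = 0.351 (rho 0.350), and those in rox1/rox2 and WT at r = 0.585 (rho 0.511). Over all genes r was 0.590 with rox1, 0.865 with rox2 and 0.830 with rox1/rox2. These values are across genes of the same libraries, which are not independent replicates.

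**Figure D4:**
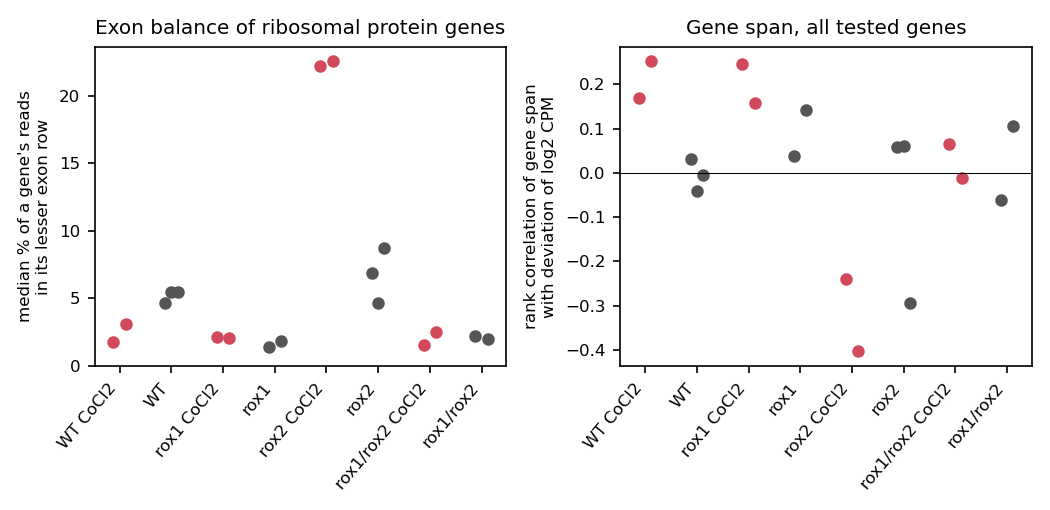
Left, median share (%) of a gene's reads that lay in its lesser exon row, over 16 ribosomal protein genes, for each library. These genes had at least 1000 reads in that row over the 18 libraries, rox2 CoCl2 included. Right, Spearman's rho across 5488 genes between gene span and the library's deviation of log2 CPM from the mean of the 18 libraries. Each point is 1 library, red with CoCl2 and grey without; the rox2 CoCl2 points stand at 22.2% and 22.6% on the left and at −0.24 and −0.40 on the right, where rox2 library 3 stands at −0.29.

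Among the 36 paralogue pairs, both copies fell in WT CoCl2 in 25, 1 copy passed the test in 7 and neither in 4. The absolute difference between the fold changes of the copies had a median of 0.23 and was under 0.5 in 30 pairs, with a largest value of 1.18. The difference between copies was not tested. Reads that matched more than 1 place were recorded apart from the gene counts, at 17.3 to 42.8 for every 100 gene counts of a library. The levels of near-identical copies therefore rest on the reads that could be placed in 1 copy. In RPL22 the A copy fell (−1.91) and the B copy did not pass (−0.74, SE 0.549). RPL22B had 57.4 and 130.4 CPM in WT CoCl2, against 158, 171 and 140.2 CPM in WT. RPS28 (A −2.25, B −1.33), RPP2 (A −2.18, B −1.41) and RPL19 (A −1.72, B −1.13) had both copies called, and in RPS9 only the B copy was (A −0.46, B −1.37).

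**Figure D5:**
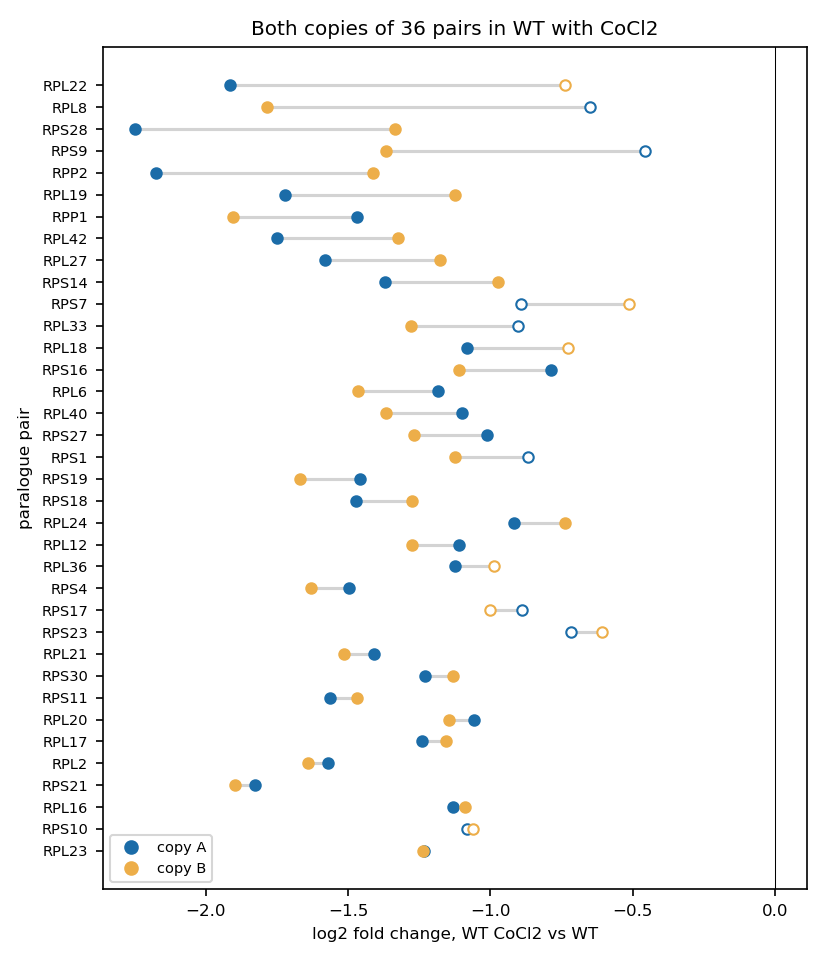
Log2 fold changes of the A copy (blue) and the B copy (yellow) of 36 paralogue pairs in WT CoCl2 against WT, joined by a grey line and sorted by their distance; filled circles have an adjusted p below 0.05. The copies of RPL22 and RPL8 lie more than 1 apart, and those of 30 pairs lie less than 0.5 apart.

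RPL8, for a large-subunit protein needed early in assembly, had a larger share of its reads in the A copy with CoCl2 in every genotype. RPL8A had 279 and 549.6 CPM in WT CoCl2, against 647, 678 and 622 CPM in WT (−0.65, adjusted p = 0.182). RPL8B had 342 and 862 CPM in WT CoCl2, against 1969, 2152 and 2090.4 CPM in WT (−1.78, SE 0.469, adjusted p = 0.00703). The A copy took 38.9% to 44.9% of the pair's CPM in WT CoCl2, against 22.9% to 24.7% in WT. It took 32.1% to 42.2% in rox1 CoCl2 against 24.4% to 24.5% in rox1, 40.1% to 40.7% in rox2 CoCl2 against 19.6% to 23.1% in rox2, and 42.2% to 42.6% in rox1/rox2 CoCl2 against 23.1% to 23.9% in rox1/rox2. The ratio did not overlap between the 8 libraries with CoCl2 and the 10 without. Only 1 other pair of the 36, RPL19, met that description: its log2 ratio of A to B was 0.13 to 0.62 with CoCl2 and 0.69 to 1.12 without. Within WT alone, the ratio did not overlap between the CoCl2 and untreated libraries in 30 of the 36 pairs. Between hypoxia and normoxia it did not overlap in 4 of the 36. The share among other pairs of genes was not counted for any of these descriptions, so no more is read from them. Both RPL8 copies span 771 bp and have 1 exon.

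Some pairs were far from balanced. In WT the log2 ratio of CPM of A to B, not corrected for length, was 3.15 for RPL22, −2.97 for RPS9, 2.38 for RPS14 and 2.28 for RPL27. The same copy was the higher one in WT and in WT normoxia in 28 of 36 pairs. RPS30, for a small-subunit protein made as a fusion with a ubiquitin-like part in animals, differed most between the experiments: its log2 ratio was 0.63 in WT and −3.25 in WT normoxia. RPS30A had 678, 758 and 673 CPM in WT and RPS30B had 445, 479 and 439, while in WT normoxia RPS30A had 276, 198 and 289.7 CPM and RPS30B had 2466, 2116 and 2593. Read length, provider and growth differed between those experiments, and reads that matched more than 1 place came to between 17.3 and 42.8 for every 100 gene counts of a deletion library and were recorded as 0 in the oxygen experiment, so these causes cannot be told apart.

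For the 41 single-exon genes the level could be set per length. Their median was 3261 CPM per kb in WT, against 39.0 for all 5395 single-exon genes, and 36 of the 41 were among the 100 highest. The highest was RPS31, which is made as a fusion with ubiquitin, at 14140 ± 634 CPM per kb (SD, n = 3), and the lowest was RPL8A at 842 ± 36.3. In WT the median was 2685 CPM per kb for 22 large-subunit genes, 4021 for 15 small-subunit genes and 2867 for 4 stalk genes. In WT CoCl2 the same medians were 941, 1748 and 754 CPM per kb. In WT normoxia the median was 2168 CPM per kb, against 54.0 for all single-exon genes, and 35 were among the 100 highest.

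In low oxygen the ribosomal protein genes stayed close to their normoxic level. In WT hypoxia against WT normoxia 0 of 107 were called by edgeR in either direction and 0 by DESeq2, with 6.49% of all genes called, and 5 had an unadjusted p below 0.05, against 22.1% of all genes. The fold changes lay between −0.29 and 0.11 with a median of −0.05, and 2 genes (RPL6A and RPP1A) had every hypoxic library below every normoxic one, against 13.8% of all genes. Genes such as RPL6B and RPS3 went the other way, with every hypoxic library above every normoxic one. The share of all genes that lay wholly above was not counted. The sample titles name no pairs, and same-numbered deviations from the group means correlated only weakly (0.152, 0.307 and 0.137). If the numbers are taken as pairs, a fit with a block for the number called 11 of the 107 genes lower and 0 higher. That share was close to the 7.9% of all genes called lower. Among the 11 called, RPL38, a small protein of the large subunit, had the lowest fold change. RPL38 had 491, 409.8 and 525 CPM in WT hypoxia, against 607, 425 and 706 CPM in WT normoxia in the same order of numbers. It was lower in 3 of 3 pairs, by 0.26 with the block (SE 0.0644, adjusted p = 0.0244), although the groups overlapped. RPL30, which represses its own splicing in S. cerevisiae, fell by 0.23 with the block (adjusted p = 0.00879), and RPS30A fell by 0.22. The highest genes were RPS4B, RPL6B and RPS11A, each at 0.11 and not called. The fold change also moved weakly with gene span in this experiment (rho 0.209 over all genes and 0.295 over the 107), and RPL38 spans 237 bp. With the block and the length correction together 7 genes fell and 1 rose. The share of all genes called in that fit was not counted, so no more is read from it.

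Genes that work with ribosomal proteins were counted in the same fits, where 19.4% of all genes were called lower and 27.7% higher in WT CoCl2. Of 32 translation factors 13 fell and 0 rose in WT CoCl2 (median −0.82), among them TEF2 (−1.53) and EFB1 (−1.43) for elongation factor 1. In the same list ANB1 fell by 2.00 and its near-identical partner HYP2 by 0.88, both for the factor eIF5A. Those values rest on reads that could be placed in 1 copy. In hypoxia ANB1 rose by 1.00 and HYP2 fell by 0.32. Whether reads were exchanged between those copies was not tested. Of 14 proteins that bind the ribosome at its exit tunnel or surface 6 fell (median −0.78), including EGD1 (−1.39) and EGD2 (−1.20), subunits of the nascent-chain complex, and ASC1 (−1.30), a small-subunit scaffold. Of 14 ribosomal protein chaperones 3 fell (median −0.68), a share close to that of all genes: YAR1 (−1.40), SQT1 (−1.30) and TSR2 (−1.16), which escort RPS3, RPL10 and RPS26 in S. cerevisiae. In rox2 CoCl2, where 21.8% of all genes were called lower and 26.3% higher, the counts called lower were 20 of 32, 7 of 14 and 5 of 14, and in rox1 CoCl2 0 of each.

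Of 24 regulators of ribosomal protein genes 8 fell and 5 rose in WT CoCl2, against the same 19.4% and 27.7% of all genes. RAP1 (−0.78) and FHL1 (−0.51), which sit on these promoters in S. cerevisiae, fell, as did ABF1 (−1.30). CRF1, a corepressor that acts with FHL1 there, rose by 2.26, and the protein kinase A subunits TPK3 (3.08), TPK2 (1.97) and BCY1 (1.41) rose. The 53 mitochondrial ribosomal protein genes, which belong to another ribosome, gave 3 lower and 11 higher in WT CoCl2 (median 0.18). In hypoxia they gave 9 lower and 0 higher (median −0.19), where 3.85% of all genes were called lower and 2.64% higher. RSM18, of the small mitochondrial subunit, rose by 0.79 in WT CoCl2 and fell by 0.78 in hypoxia.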

How the data were processed

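The values used were gene and exon counts deposited for 24 libraries. Per the submitters' processing notes, TopHat2 and HTSeq 0.6.0 were used to make them. Build, annotation and strand setting are not given in the sources used here, so no coordinates are printed. Exon rows were summed per gene, and rows that name no gene were left out of library sizes. Symbols and gene spans came from a RefSeq table matched by locus tag. The spans include introns, so for genes with introns they exceed the length of the message, and the length correction uses them as they are. Each experiment was fitted apart with edgeR 4.0.16 in R 4.3.3: filterByExpr with a minimum count of 10, TMM scaling, 1 mean per group, the quasi-likelihood test and Benjamini-Hochberg adjustment over all genes tested (5544 and 5559). SEs are the log2 fold change divided by the root of F. DESeq2 1.42.0, other scalings, no filter, a replicate block, a length correction (lowess of each library's log2 deviation on log2 span, span 0.3), only the exon row with the most reads, only the groups compared and leaving out each library were tried. For the block in the oxygen experiment the replicate numbers were taken as pairs from the data alone. Same-numbered deviations from the group mean correlated weakly there, at 0.152, 0.307 and 0.137 in the 3 pairs. The members and lists were chosen with earlier results of these data known. The genes named were the 6 lowest, the 6 highest and the stalk in WT CoCl2, the 3 lowest and highest in the other CoCl2 comparisons and in hypoxia, up to 3 called genes or else the lowest and highest elsewhere, the 6 pairs furthest apart, the 4 most unequal pairs and up to 4 called genes per other list; RPS0A, RPS30, RPL6A, RPL38 and RPL39 in rox2 CoCl2 against WT CoCl2, HYP2, RSM18, 3 regulators beyond 4 (RAP1, FHL1 and ABF1) and the extremes of single-exon levels were picked after their values were seen. Counting error is small at these depths beside the spread between libraries.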

Additional observations from a re-analysis of the deposited data

Results flagged for a closer look

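The CoCl2 response of RPL43B in rox1 minus that in WT was 1.96 on the log2 scale, and the interaction term passed the test (SE 0.501, adjusted p = 0.0427 over all genes in edgeR's quasi-likelihood fit). It was higher in each rox1 CoCl2 library (118 and 178 CPM) than in each WT CoCl2 library (38.4 and 78.7 CPM), and lower in each rox1 library (187 and 191 CPM) than in each WT library (278, 298 and 294 CPM). The call was lost when 1 of 7 libraries was left out in turn. RPL43B was also the highest ribosomal protein gene in the rox2 (1.72) and rox1/rox2 (1.34) interactions, where it was not called. Each interaction subtracts the same WT response, in which RPL43B was the lowest ribosomal protein gene (−2.31), so these ranks are not separate support. With the length correction RPL43B stood at 0.92 in the rox2 interaction, below RPL34B (1.09) and RPL22A (1.03).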

How the results depend on the processing

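With 2 libraries in 6 of the 8 groups of the deletion experiment, leaving out 1 library set most counts. For most fits in this paragraph the share of all genes called is not given. The counts therefore show only how the calls depend on the processing. Leaving out each library in turn gave 12 to 99 genes lower in WT CoCl2 against WT, 0 to 24 in rox1 CoCl2, 8 to 76 in rox2 CoCl2, 0 to 14 in rox1/rox2 CoCl2 and 0 to 3 in hypoxia. It gave 0 to 28 higher in rox1 CoCl2 against WT CoCl2, 0 to 17 in rox2 CoCl2 against WT CoCl2, 0 to 2 for the rox1 interaction and 0 to 1 for the rox2 interaction. DESeq2 called 16 lower in rox1 CoCl2, 57 in rox1/rox2 CoCl2, 5 higher in rox1 CoCl2 and 25 in rox2 CoCl2 against WT CoCl2, and 1 for the rox2 interaction. With only the groups compared the counts were 0 lower in rox1 CoCl2, 32 in rox2 CoCl2, 0 in rox1/rox2 CoCl2, 1 in rox1 and 86 lower with 1 higher in rox1/rox2 against WT, and 0 higher in both rox1 and rox2 CoCl2 against WT CoCl2. Scaling by total counts, which moved the median of all genes by 0.25 in WT CoCl2, gave 11 lower in rox1/rox2 CoCl2 and 5 and 9 higher in rox1 and rox2 CoCl2 against WT CoCl2. The length correction gave 5 lower in rox1/rox2 CoCl2 and 1 and 0 higher in rox1 and rox2 CoCl2 against WT CoCl2, and the largest exon row gave 0 lower in rox1/rox2 CoCl2. Leaving out both libraries richest in reads outside genes, chosen after seeing the data, left 1 rox2 CoCl2 library. It changed the counts in rox2 CoCl2 against rox2, against WT CoCl2 and for the rox2 interaction. The replicate block gave 4 lower in rox1/rox2 CoCl2 (22 with the length correction), 5 and 10 higher in rox1 and rox2 CoCl2 against WT CoCl2 (0 in rox2 with the length correction) and 11 lower in hypoxia (7 lower and 1 higher with the length correction). The sample titles give replicate numbers and name no pairs in either experiment. Against the untreated strain, same-numbered deviations correlated at 0.159 in WT CoCl2, −0.413 in rox2 CoCl2 and −0.066 in rox1/rox2 CoCl2. In rox1 CoCl2 they correlated at −0.130, and crossing the numbers left the count at 1. Between CoCl2 groups, with 2 pairs each, they correlated against WT CoCl2 at 0.732 for rox2, 0.658 for rox1/rox2 and 0.254 for rox1. The block moved no other count by over 1.5 times.

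Small fold changes changed sign under some settings. In rox1 CoCl2, RPL36B ran from −0.28 to 0.042 without 1 library (0.089 by total counts), RPS23B from −0.22 to 0.069 (0.10 by total counts) and RPS16A from −0.21 to 0.20 (−0.034 with DESeq2 or its size factors, −0.00977 with TMM from other genes, −0.00359 with the block and length correction). In rox2 CoCl2, RPP2B ran from −0.79 to 0.66 (−0.30 with the length correction, −0.22 with the block too), RPL34B from −0.91 to 1.01 and RPL39 from −0.71 to 1.02 (−0.021 with the length correction). In rox1/rox2 CoCl2, RPS9A ran from −0.84 to 0.14 and RPL8A from −0.72 to 0.11. Against WT, RPS10A ran from −0.027 to 1.62 in rox1, and RPL27B from −0.035 to 0.084 in rox2 (−0.047 with the length correction, −0.040 with the block too, −0.045 without both libraries richest in reads outside genes). RPP1A ran from −1.09 to 0.20 in rox1/rox2 CoCl2 against WT CoCl2, RPL16A from −0.96 to 0.17 in the rox2 interaction and RPS7A from −0.78 to 0.40 in the rox1/rox2 interaction. The cause was not tested.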
